A study of Rattus norvegicus with 8 samples.

Results

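Transcripts of adipocyte genes were examined in the right stellate ganglion of 8 rats. The set was named by RefSeq record and held 8 genes, *Adipoq*, *Cfd*, *Lep*, *Fabp4*, *Lpl*, *Plin1*, *Ucp1* and *Pparg*. Of these 8 records, 7 were found among the 18314 records quantified. The record named for *Plin1* (NM_013094) was not among them, and values of *Plin1* are given from a different record of the gene (NM_001308145), which was chosen after the files had been seen. The stellate ganglion is a sympathetic ganglion at the base of the neck whose neurons supply the heart. The samples were 4 normotensive Wistar rats and 4 spontaneously hypertensive rats (SHR), an inbred strain derived from Wistar stock, all male and 16 weeks old, with no treatment given in the labels. Each rat gave 1 library, and rats are named here by strain and replicate number. The strains differ at many places in the genome, so that strain and blood pressure cannot be told apart. After dissection the ganglia were cleaned and their sheath was removed, and RNA was extracted without separating the cell types. Fewer adipocytes and less RNA per adipocyte can therefore not be told apart, and a transcript level does not name its cell of origin. The origin of the adipocyte transcripts within the dissected tissue was not tested.

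Adipocytes store fatty acids as triglyceride in lipid droplets and secrete hormones that report on energy stores. White adipocytes hold a single large droplet. Brown adipocytes hold many small droplets and burn fatty acids for heat through the uncoupling protein encoded by *Ucp1*, under the control of sympathetic nerves. Brown fat lies around the neck and chest of the rat, and white fat surrounds many nerves and vessels. *Adipoq* encodes adiponectin, *Lep* leptin and *Cfd* adipsin (complement factor D), which are secreted proteins. *Fabp4* encodes a cytosolic fatty acid carrier, *Lpl* the lipase that releases fatty acids from circulating lipoproteins, and *Plin1* a protein that coats the lipid droplet. *Pparg* encodes the nuclear receptor that drives adipocyte differentiation.

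The promoters of 3 secreted factors and of the thermogenic gene are shown because these genes separated the rats in the different ways described after them. Each is the stretch of 250 bases before the annotated start in RefSeq (build GRCr8), written 5′ to 3′ on the strand of the gene. A match to TTGCNNAA, the core of sites bound by the C/EBP factors of adipocyte differentiation, is in capitals. The windows lie at chr11:91240170-91240419 (minus strand) for *Adipoq*, chr7:10465497-10465746 (minus strand) for *Cfd*, chr4:58626288-58626537 (plus strand) for *Lep* and chr19:41721422-41721671 (minus strand) for *Ucp1*.
Adipoq: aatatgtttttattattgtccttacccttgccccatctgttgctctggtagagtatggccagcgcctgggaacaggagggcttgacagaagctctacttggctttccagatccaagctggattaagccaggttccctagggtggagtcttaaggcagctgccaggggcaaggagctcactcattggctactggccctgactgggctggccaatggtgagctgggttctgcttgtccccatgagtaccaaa
Cfd: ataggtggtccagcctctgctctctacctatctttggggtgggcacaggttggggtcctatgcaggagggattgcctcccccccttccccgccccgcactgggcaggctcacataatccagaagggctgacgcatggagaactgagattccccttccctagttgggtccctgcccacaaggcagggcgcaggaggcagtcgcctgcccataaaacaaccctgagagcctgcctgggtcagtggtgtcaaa
Lep: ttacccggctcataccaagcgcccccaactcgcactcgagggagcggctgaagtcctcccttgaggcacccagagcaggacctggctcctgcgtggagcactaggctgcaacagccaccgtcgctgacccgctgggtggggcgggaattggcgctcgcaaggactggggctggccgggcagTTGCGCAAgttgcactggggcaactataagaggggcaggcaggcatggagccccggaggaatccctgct
Ucp1: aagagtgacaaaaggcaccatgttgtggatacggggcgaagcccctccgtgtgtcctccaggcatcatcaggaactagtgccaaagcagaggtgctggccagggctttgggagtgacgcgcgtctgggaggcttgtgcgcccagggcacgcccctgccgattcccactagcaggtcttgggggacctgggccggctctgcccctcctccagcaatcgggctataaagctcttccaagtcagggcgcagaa
TTGCNNAA was found 69 bases before the start of *Lep* and was present in 9.22% of the 33469 rat promoters of the same length. Among windows not shown, it was also 77 bases before the start of *Plin1* and 174 bases before a start of *Pparg*. AGGTCA, the hexamer recognised by nuclear receptors such as Pparg, was in none of the 4 windows shown and in 14.1% of all promoters. In 0.0508% of all promoters there were 2 copies of it 1 base apart. Both strands were searched. The 250 bases shown leave out more distant enhancers, and a window without a match says nothing of the factor. Promoters were matched for 6 of the 8 genes, and *Fabp4* and *Lpl* had none in the table used.

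Values by rat are normalised counts, which are Salmon's estimated counts scaled by edgeR's TMM method to the mean library. The libraries held 25820299 to 35509074 estimated counts, and the 7 adipocyte records together took from 0.00101% of them in SHR 3 to 0.0124% in SHR 1. No pair of rats in a strain had counts that agreed within sampling noise. Wistar 1 and SHR 1 stood apart from the rest of their strains: the chi-square per degree of freedom over all records was 47.9 to 88.0 for pairs with Wistar 1 against 23.7 to 30.6 for the other Wistar pairs, and 72.9 to 118.1 for pairs with SHR 1 against 42.9 to 58.5 for the other SHR pairs. The log2 fold changes of the 5 tested adipocyte genes are given with and without these rats. Leaving out each rat singly was planned. Leaving out both was added after they had been seen to hold the highest adipocyte values.

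Among the secreted factors, SHR 1 was the highest of the 8 rats for each gene. *Adipoq* (NM_144744) had 204, 23.4, 148 and 33.2 normalised counts in Wistar 1 to 4 and 588, 25.9, 20.7 and 22.6 in SHR 1 to 4. Wistar 1, Wistar 3 and SHR 1 thus lay far above the other 5 rats, and the strains overlapped. *Cfd* (NM_001077642) had 318, 174, 308 and 161 normalised counts in Wistar 1 to 4 and 1323, 309, 78.1 and 132 in SHR 1 to 4. Only SHR 1 stood clear for *Cfd*, and the other 3 SHR spanned most of the Wistar range. *Lep* (NM_013076) had 7.69, 4.26, 0.924 and 2.85 normalised counts in Wistar 1 to 4 and 54.7, 7.79, 5.65 and 10.3 in SHR 1 to 4. *Lep* held few counts in every rat but SHR 1, and Wistar 1 lay within the SHR range.

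The genes of lipid uptake and storage did not share a single pattern. *Fabp4* (NM_053365) had 563, 55.4, 171 and 71.2 normalised counts in Wistar 1 to 4 and 1239, 54.5, 73.4 and 114 in SHR 1 to 4. Wistar 1 and SHR 1 were the highest for *Fabp4*, and the other 6 rats lay together irrespective of strain. *Plin1* (NM_001308145) was low, with 25.0, 2.13, 4.62 and 4.75 normalised counts in Wistar 1 to 4 and 43.5, 1.30, 6.59 and 9.40 in SHR 1 to 4. The same pair of rats was highest for *Plin1* as for *Fabp4*. *Lpl* (NM_012598) had 321, 315, 413 and 355 normalised counts in Wistar 1 to 4 and 649, 389, 119 and 121 in SHR 1 to 4. The 4 Wistar rats were alike for *Lpl*, with 2 SHR on either side of the Wistar mean, and Wistar 1 was not raised.

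*Ucp1* (NM_012682) was high in a single rat. It had 894, 22.4, 40.7 and 112 normalised counts in Wistar 1 to 4 and 44.5, 48.0, 12.2 and 47.0 in SHR 1 to 4. Wistar 1 was the highest and Wistar 4 came next. SHR 1, which led for the secreted factors, had about as much *Ucp1* as SHR 2 and SHR 4.

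The named record of *Pparg* (NM_013124) had 29.8, 5.32, 12.0 and 5.70 normalised counts in Wistar 1 to 4 and 23.3 in SHR 1, and was estimated at 0 in SHR 2, 3 and 4. Salmon divides reads shared by several transcripts among them, and 3 *Pparg* records were quantified. Their sum was 36.5, 5.32, 20.3 and 5.70 normalised counts in Wistar 1 to 4 and 63.8, 15.6, 39.5 and 5.64 in SHR 1 to 4. The zeros of the named record in SHR therefore went with counts assigned to the other two records, and the level of a single *Pparg* transcript is uncertain. SHR 1 was the highest rat for the sum, and the strains overlapped. With records summed to genes, *Pparg* passed the filter and had a log2 fold change of 0.89 (SE 0.77, adjusted p = 0.580 by edgeR).

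**Figure D1:**
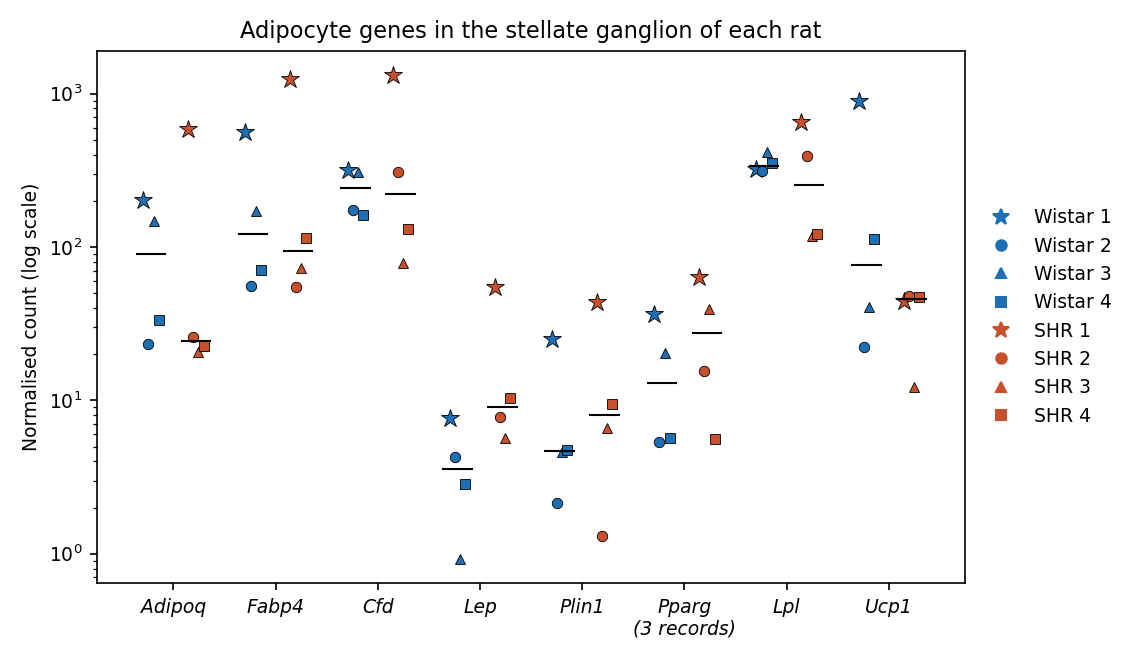
Normalised count of each adipocyte gene (log scale) in each of the 8 rats, with Wistar in blue, SHR in red, a marker shape for each replicate number and a bar at the median of 4 rats. The stars of replicate 1 lie above the other rats of their strain for Fabp4 and Plin1 in both strains, for Ucp1 in Wistar alone (894) and for Lpl in SHR alone (649).

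Levels of different genes were compared per transcript length, as TPM. *Fabp4* (20.1 ± 21.2 TPM in Wistar and 34.7 ± 53.8 in SHR, mean and SD, n = 4) and *Cfd* (12.7 ± 4.31 and 23.7 ± 29.6) were the highest of the set. Their order depended on Wistar 1 and SHR 1, since the medians put *Cfd* above *Fabp4* in both strains (12.9 against 12.0 TPM in Wistar and 11.4 against 9.26 in SHR). *Lpl* was at 5.20 ± 0.834 TPM in Wistar and 4.57 ± 3.52 in SHR, *Adipoq* at 3.11 ± 2.61 and 4.90 ± 8.39, and *Ucp1* at 8.85 ± 13.7 and 1.27 ± 0.537. *Lep* and the named *Pparg* record stayed under 1 TPM in every rat. Among the 5 genes above them, neighbours in the order of the means differed in each strain by less than the larger of their SDs. In Wistar 1, *Fabp4* reached 50.9 TPM and *Ucp1* 29.2 TPM, whereas in SHR 1 *Fabp4* reached 115 TPM and *Ucp1* 1.48 TPM. The TPM of the 7 records summed to 107.5, 21.7, 46.6 and 25.7 in Wistar 1 to 4 and to 212.1, 28.2, 15.7 and 21.8 in SHR 1 to 4. Markers of sympathetic neurons (12 of 13 found) summed to 43650 to 49280 TPM in Wistar and 42830 to 49900 in SHR, and no gene of the list was at 0 in all rats.

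The comparison of SHR with Wistar asked whether adipocyte transcripts differ between the hypertensive and the normotensive ganglion. The quasi-likelihood test of edgeR was run on 13659 records and its p-values were adjusted over all of them. Of the 5 adipocyte records that passed the filter on low counts, 0 were called at an adjusted p under 0.05, where 2.85% of all records were called, 1.16% as higher and 1.69% as lower in SHR. *Lep* and the named *Pparg* record did not pass the filter. At an unadjusted p under 0.05 there was 1 adipocyte record, *Ucp1*, where 16.8% of all records were. DESeq2 called 0 of the 4 for which it gave an adjusted p, and gave none for *Fabp4*. The strains overlapped for all 7 records, where 10.6% of the tested records did not overlap. The deposited replicates are described as biological, with 1 rat each.

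*Ucp1* had the largest difference of the 5 (log2 fold change -2.82, SE 1.05, adjusted p = 0.218 by edgeR), from a mean of 267 ± 420 in the Wistar rats to 37.9 ± 17.2 normalised counts in the SHR (SD, n = 4). The difference rested on Wistar 1: without it the log2 fold change was -0.64 (SE 0.61, adjusted p = 0.646 by edgeR). *Adipoq* averaged 102 ± 88.2 over the Wistar rats and 164 ± 283 over the SHR, with a log2 fold change of 0.69 (SE 1.12, adjusted p = 0.798 by edgeR). Its sign rested on SHR 1, and without that rat the log2 fold change was -2.14 (SE 0.73, adjusted p = 0.139 by edgeR).

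*Fabp4* (a mean of 215 ± 237 over the Wistar rats and 370 ± 580 over the SHR) and *Cfd* (240 ± 84.2 and 460 ± 584) had log2 fold changes of 0.78 (SE 1.04) and 0.94 (SE 0.74), with adjusted p-values of 0.744 and 0.551 by edgeR. Both turned to the other sign without SHR 1, at -1.40 (SE 0.74) and -0.48 (SE 0.45). *Lpl* averaged 351 ± 45.0 over the Wistar rats and 320 ± 254 over the SHR, and its log2 fold change was -0.14 (SE 0.48, adjusted p = 0.916 by edgeR). Its sign turned without SHR 3 or without SHR 4, at 0.15 and 0.14.

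The 95% intervals of the log2 fold changes, by a normal approximation from the SE, ran from -1.51 to 2.89 for *Adipoq*, from -1.26 to 2.83 for *Fabp4*, from -0.52 to 2.39 for *Cfd*, from -1.09 to 0.81 for *Lpl* and from -4.89 to -0.76 for *Ucp1*. With Wistar 1 and SHR 1 both left out, the log2 fold changes of *Adipoq*, *Fabp4*, *Cfd*, *Lpl* and *Ucp1* were -1.58, -0.31, -0.33, -0.80 and -0.73, and 0 of the 5 were called. On TPM, two-sided exact permutation tests of 4 rats against 4, whose smallest possible p is 0.0286, gave p = 0.0857 for *Lep* (adjusted over the 7 records, 0.6) and p = 0.286 or more for the other 6.

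**Figure D2:**
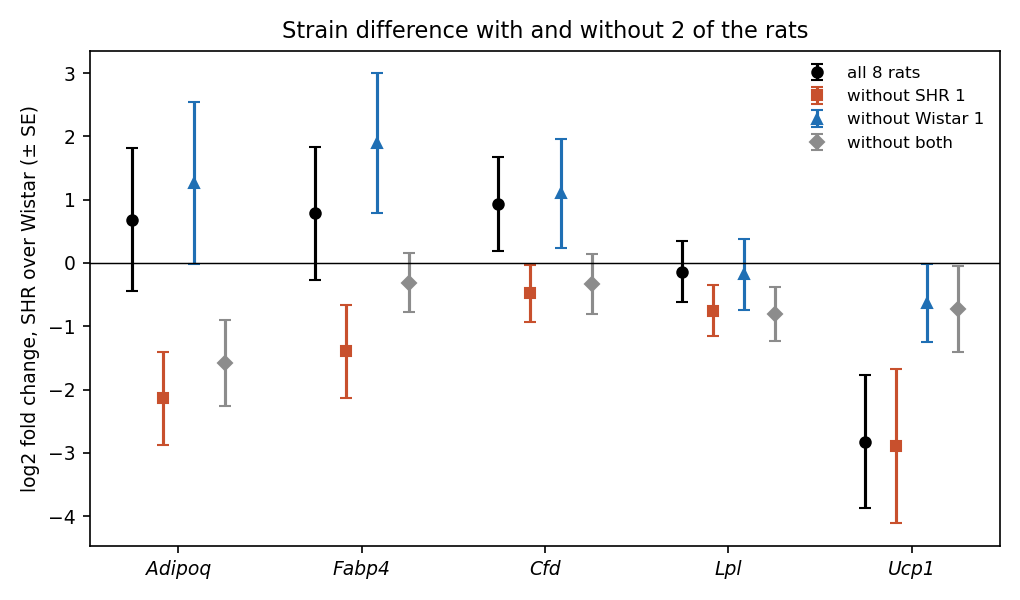
log2 fold change of SHR over Wistar (points, with bars of 1 SE, from edgeR) for the 5 tested adipocyte genes, with all 8 rats, without SHR 1, without Wistar 1 and without both. The points of Adipoq, Fabp4 and Cfd lie above 0 with all rats and below 0 without SHR 1, and the point of Ucp1 moves from -2.82 to -0.64 without Wistar 1.

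Wistar 1 and SHR 1 were then set beside the median of the other 6 rats, as log2 ratios of normalised counts with a prior count of 2. Both were raised for *Adipoq* (2.95 in Wistar 1 and 4.47 in SHR 1), *Fabp4* (2.93 and 4.06) and the summed *Pparg* records (1.61 and 2.38). SHR 1 was raised further than Wistar 1 for *Cfd* (2.97 against 0.92) and *Lep* (3.03 against 0.48). *Ucp1* showed the opposite order, at 4.29 in Wistar 1 and 0.02 in SHR 1. *Lpl* was at -0.06 in Wistar 1 and 0.95 in SHR 1. A log2 ratio of 1 or more was reached by 4 of the 7 genes in Wistar 1 and by 5 in SHR 1, and by 3 in both. Among all tested records the share was 1.57% in Wistar 1 and 5.01% in SHR 1. SHR 1 was at least 2-fold above every other rat for *Adipoq*, *Fabp4*, *Cfd* and *Lep*, 4 of the 7, where it was for 0.644% of all tested records, and Wistar 1 for *Ucp1* alone, where it was for 0.117%. *Lep* and the named *Pparg* record did not pass the filter on low counts, whereas all these shares are over the 13659 records that passed. The shares are therefore no like measure for *Lep*. These rats were singled out after the values had been seen, and the ratios are descriptions with no test.

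Some other genes of the brown adipocyte list were also high in Wistar 1. *Cox8b*, a cytochrome oxidase subunit of brown fat and striated muscle, had 141 normalised counts in Wistar 1 and 4.26 to 10.4 in the other 7 rats. *Cidea*, a lipid droplet protein of brown adipocytes, had 645 in Wistar 1, 87.1 in SHR 1 and 46.1 to 173 in the other 6. *Cpt1b*, the muscle and brown fat form of the enzyme that passes fatty acids into mitochondria, had 74.0 in Wistar 1, 34.4 in SHR 1 and 15.1 to 25.4 elsewhere. Of the 14 brown adipocyte genes with values here, 3 reached a log2 ratio of 1 in Wistar 1 and 0 in SHR 1. Over all tested records the shares were 1.57% and 5.01%. *Elovl3* and *Zic1* were found at low counts and are not among the 14. *Elovl3* went the other way, with 19.2 normalised counts in SHR 1, 6.73 in Wistar 1 and 0.950 to 12.2 in the other 6 rats. *Zic1* had at most 1.90 in any rat. *Ppargc1a* and *Dio2*, which are also induced in active brown fat, were not among the 3. Striated muscle also holds *Cox8b* and *Cpt1b*. Its markers (13 of 14 found), most of whose sum was *Acta1*, reached 58.1 TPM in Wistar 1 and 48.4 to 64.6 over the 8 rats, and without *Acta1* 9.10 in Wistar 1 and 5.19 to 10.3 over the 8 rats. Of the 9 muscle genes with a tested record, 0 were highest in Wistar 1. *Mb* (9.61 normalised counts) and 1 of 2 *Myl1* records (26.9) were highest there, and neither passed the filter on low counts. The sum of the *Myl1* records was 42.3 in Wistar 1 and 43.4 in Wistar 3. The part of muscle in these values was not tested.

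Genes of lipid storage followed *Adipoq* and *Fabp4* in part. *Pck1*, which provides glycerol for triglyceride, had 441 normalised counts in Wistar 1, 781 in SHR 1 and 18.8 to 139 in the other 6 rats. *Aqp7*, the glycerol channel of adipocytes, had 76.9 in Wistar 1, 69.9 in SHR 1 and at most 16.6 elsewhere. *Thrsp*, a regulator of lipogenesis, was the higher in Wistar 1 (1947 against 747 in SHR 1). *Retn*, the adipocyte hormone resistin, had 71.1 in Wistar 1, 193 in SHR 1 and 5.32 to 26.8 elsewhere. *Rbp4*, a retinol carrier, was high in SHR 1 alone, with 208 normalised counts there, 28.8 in Wistar 1 and 6.59 to 43.7 elsewhere. *Car3*, a carbonic anhydrase of adipocytes and slow muscle, had 4336 in SHR 1, 299 in Wistar 1 and 1.88 to 490 elsewhere. Of the 30 storage genes with values here, 7 reached a log2 ratio of 1 in Wistar 1, 11 in SHR 1 and 6 in both. Over all tested records the shares were 1.57% in Wistar 1 and 5.01% in SHR 1. Genes that did not reach it in either rat included *Lipe* (-0.27 and 0.16), *Plin2* (0.11 and 0.15), *Dgat2* (-0.22 and -0.05) and *Slc2a4* (0.73 and -0.43). *Cebpa*, *Cebpb*, *Mlxipl* and *Adrb3* were found with at most 16.0 normalised counts per record and are not among the 30.

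**Figure D3:**
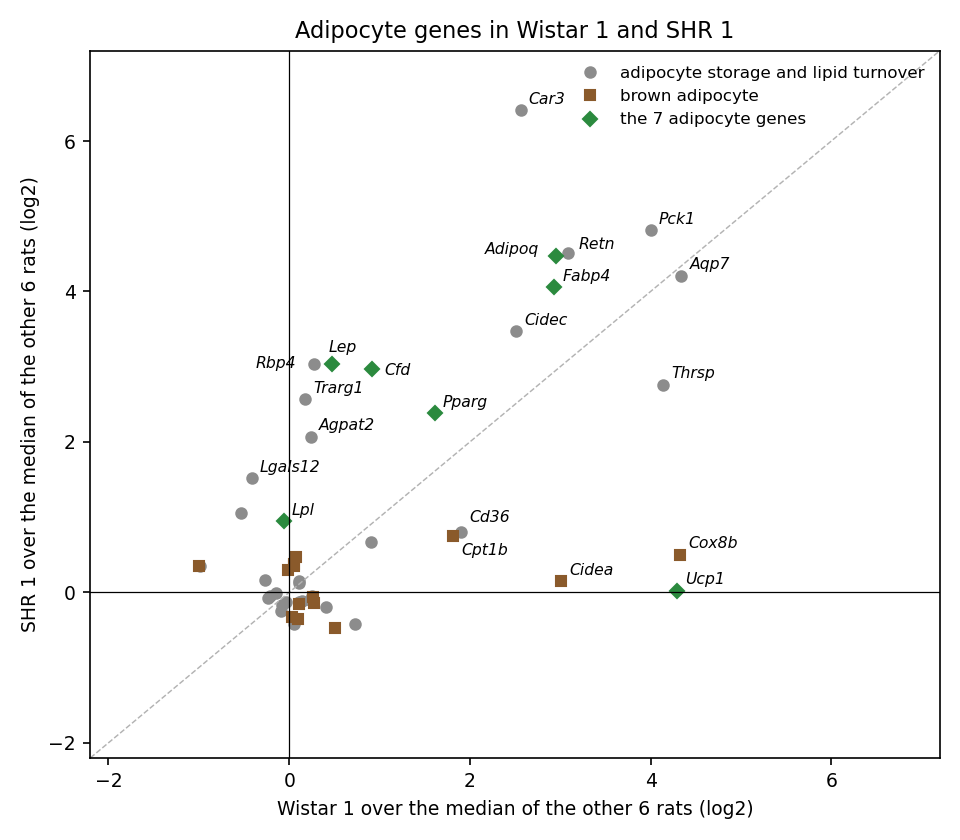
log2 ratio of Wistar 1 (horizontal axis) and of SHR 1 (vertical axis) to the median of the other 6 rats, with equal ratios on the dashed line. Shown are the 7 adipocyte genes (Pparg as the sum of 3 records), 30 genes of the storage list and 14 of the brown adipocyte list. Adipoq, Fabp4, Pck1 and Retn lie high on both axes, Ucp1, Cidea and Cox8b high in Wistar 1 alone, and Lep, Rbp4 and Cfd nearer to the axis of SHR 1.

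Other cell types also differed in these 2 rats. SHR 1 had the highest summed TPM of the 8 rats for fibroblast markers (1826, with 879 to 1465 in Wistar and 558 to 1078 in the other SHR), macrophage markers (391.5, with 204 to 285 in Wistar and 85.6 to 333 in the other SHR), mesothelium markers (56.9, with 23.2 to 46.7 in Wistar) and endothelial markers (186, with 120 to 154 in Wistar). It was the highest rat for 7 of 12 macrophage genes, 3 of 3 tested mesothelium genes, 5 of 12 endothelial genes and 3 of 9 fibroblast genes, where it was the highest for 15.2% of all tested records. Wistar 3 was the highest rat for 5 of the 9 fibroblast genes. SHR 1 also had the highest mural cell (151.8 TPM) and lymphocyte (20.7) sums, though it led for 2 of 8 and 2 of 7 of their genes. Its neuronal (42830) and glial (2312) sums were the lowest of the 8 rats. Wistar 1 had the highest erythroid sum (12270 TPM, with 3992 to 10390 in the other Wistar rats and 500 to 9819 in SHR) and was the highest rat for 4 of 5 erythroid genes, where it was for 15.7% of all records. No gene of these lists was at 0 in all rats. SHR 3 and SHR 4, which had the least *Lpl*, also had the lowest fibroblast, macrophage, lymphocyte, mural cell, mesothelium and erythroid sums. They did not have the lowest endothelial, glial, striated muscle or neuronal sums. The part of these cell types in the adipocyte values was not tested.

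Between the strains, the wider lists gave few calls. Of 32 tested records of the storage list, 0 were called by edgeR in either direction (3 at an unadjusted p under 0.05, and 1 called by DESeq2), where 2.85% of all records were called and 16.8% had an unadjusted p under 0.05. The list had a median log2 fold change of 0.15 against 0.01 over all tested records. The 3 genes of that list with the highest TPM were *Acly* (317 TPM in Wistar and 393 in SHR), *Plin2* (87.5 and 95.7) and *Pnpla2* (90.8 and 82.1). Of 13 tested brown adipocyte records, 0 were higher and 1 was lower in SHR, with 4 at an unadjusted p under 0.05 and a median of -0.12. That record was *Fabp3*, a fatty acid carrier of heart, muscle and brown fat, with 1617, 1194, 1331 and 1415 normalised counts in Wistar 1 to 4 and 819, 1082, 722 and 937 in SHR 1 to 4. It fell by 0.64 on the log2 scale (SE 0.15, adjusted p = 0.0472 by edgeR), and the strains did not overlap. The call was lost when any rat but SHR 2 was left out, without Wistar 1 and SHR 1 together, with RLE or upper-quartile factors and with the replicate block. *Fabp3* (106 TPM in Wistar and 66.8 in SHR), *Slc25a20* (68.9 and 56.1) and *Letmd1* (58.7 and 53.5) had the highest TPM of the brown list. They made up most of its summed TPM, which did not overlap between the strains (256 to 333 in Wistar and 192 to 220 in SHR). Without *Fabp3* the sum was 157 to 217 and 124 to 150, most of it from *Slc25a20* and *Letmd1*. The 10.6% of tested records without overlap are single records in normalised counts and give no share for a sum.

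Of 13 tested records for receptors and partners of the adipocyte genes, 0 were higher and 1 was lower in SHR, with 3 at an unadjusted p under 0.05 and a median of -0.10. It was *Cdh13*, T-cadherin, a cell surface protein that binds adiponectin, with 4584, 3718, 3192 and 2788 normalised counts in Wistar 1 to 4 and 1430, 1936, 1481 and 1494 in SHR 1 to 4. Every Wistar rat lay above every SHR. *Cdh13* fell by 1.17 on the log2 scale (SE 0.16, adjusted p = 0.00412 by edgeR) and was called under all 19 alternative settings. *Fabp5* (660 TPM in Wistar and 792 in SHR) and *Ucp2* (503 and 462), relatives of *Fabp4* and *Ucp1* that are found well beyond adipose tissue, and *Adipor1*, a receptor of adiponectin (31.8 and 29.3), had the highest TPM of this list and were not called. The 10 cell type lists gave 3 calls among 101 tested records, or 2.97%, close to the 2.85% of all records, with 2 *Ddc* records lower in SHR (log2 fold changes -1.08 and -0.92, adjusted p = 0.000306 and 0.00162) and 1 *Flt1* record higher (1.19, adjusted p = 0.0298).

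Co-variation across rats was examined for the 10 pairs of the 5 tested adipocyte genes, on log2 CPM, with exact permutation over every pairing of the rats and adjustment over the 10 pairs. Pearson's r was above 0 for all 10 pairs, and 4 passed an adjusted p of 0.05. *Adipoq* and *Fabp4* had r = 0.945 (exact permutation p = 0.00186, adjusted 0.0093) and Spearman's rho = 0.619 (exact p = 0.115, adjusted 0.287). *Adipoq* and *Cfd* had r = 0.867 (exact permutation p = 0.00308, adjusted 0.0103) and rho = 0.881 (exact p = 0.00724, adjusted 0.0724). *Lpl* and *Cfd* had r = 0.848 (exact permutation p = 0.00166, adjusted 0.0093) and rho = 0.786 (exact p = 0.0279, adjusted 0.0931). *Fabp4* and *Cfd* had r = 0.782 (exact permutation p = 0.02, adjusted 0.04998) and rho = 0.429 (exact p = 0.299, adjusted 0.467). By Spearman's rho 0 of the 10 pairs passed.

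These relations leaned on few rats. With the 2 rats farthest from the median left out, which were Wistar 1 and SHR 1 for the pairs of *Adipoq* and *Fabp4*, r was 0.76 for *Adipoq* and *Fabp4*, 0.609 for *Adipoq* and *Cfd*, and 0.168 for *Fabp4* and *Cfd*. Without SHR 1 alone 0 of the 10 pairs passed, and without SHR 3 or without SHR 4 there were 2. For *Lpl* and *Cfd*, r was 0.91 without SHR 3 and SHR 4, the 2 rats farthest from the median of *Lpl*, and 0.778 without SHR 3 alone (exact permutation p = 0.0746, adjusted 0.187). On deviations from the strain means r was 0.958 for *Adipoq* and *Fabp4*, 0.883 for *Adipoq* and *Cfd*, 0.918 for *Lpl* and *Cfd* and 0.782 for *Fabp4* and *Cfd*, with adjusted exact permutation p of 0.0608, 0.0521, 0.081 and 0.0938. With all rats *Ucp1* was the least related. Its r was 0.422 to *Adipoq*, 0.463 to *Fabp4*, 0.272 to *Lpl* and 0.266 to *Cfd*, none of which passed. This rank rested on SHR 1. Without that rat the r of *Ucp1* was 0.70 to *Adipoq*, 0.793 to *Fabp4*, 0.378 to *Lpl* and 0.578 to *Cfd*. The lowest r was then 0.109, for *Fabp4* and *Lpl*. Without both Wistar 1 and SHR 1 the r of *Ucp1* was 0.23, 0.116, 0.488 and 0.46 in the same order.

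**Figure D4:**
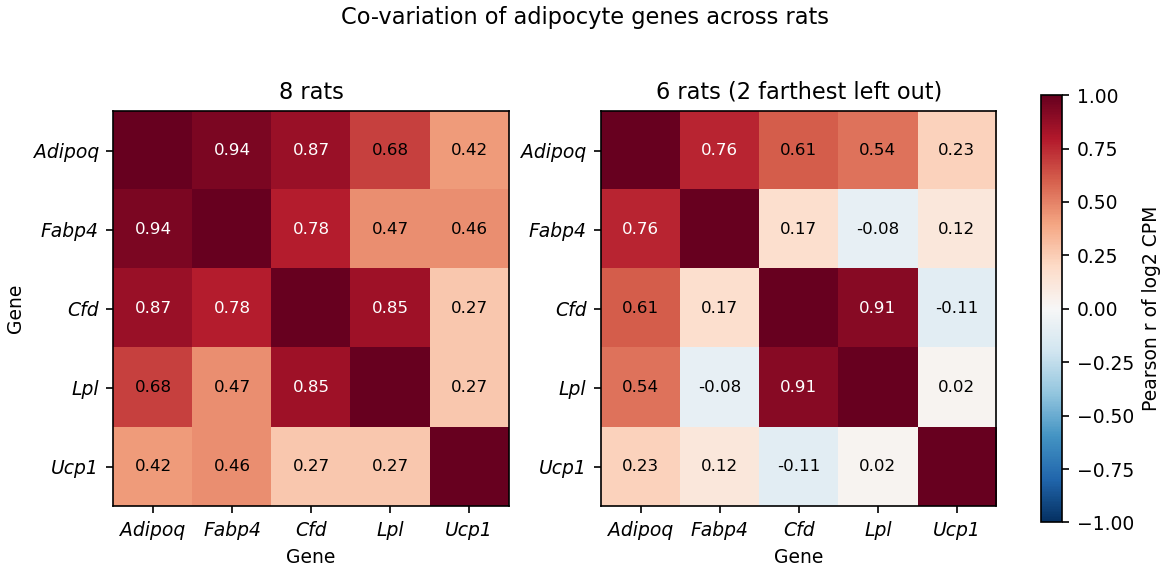
Pearson r of log2 CPM between pairs of adipocyte genes over the 8 rats (left) and over the 6 rats left after the 2 farthest from the median of 1 gene of each pair are removed (right), on a colour scale from -1 to 1. Adipoq and Fabp4 have the highest r over 8 rats (0.945), Ucp1 the lowest values, and Lpl with Cfd the highest over 6 rats (0.91).

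The genes whose pattern was most like the mean of the 5 tested adipocyte genes (mean z-score of log2 CPM) were sought among 3379 variable records, and 7 had r above 0.9 over the 8 rats. *Pck1* came first at r = 0.964, with *Retn* at 0.905 and *Car3* at 0.887. The other 7 of the 10 most alike were *Adh7* (0.927), *Rad54b* (0.922), *Cpxm1* (0.919), *Mcpt10* (0.913), *Ugt1a7c* (0.911), *Tpsb2* (0.896) and *Kif2c* (0.886). *Mcpt10* and *Tpsb2* encode mast cell proteases, and had 18.3 and 36.5 normalised counts in Wistar 1, 39.7 and 69.3 in Wistar 3, and 61.8 and 130 in SHR 1, with at most 10.4 and 21.3 in the other rats. The rats raised for *Adipoq* were therefore also those raised for the proteases. These r are descriptions over 8 shared libraries, for genes picked for their likeness.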

How the data were processed

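RNA of the right stellate ganglion was sequenced as 1 library per rat. Per the labels, a micro RNA kit and a stranded mRNA kit were used, whereas the published methods describe SMARTer amplification. The authors quantified read pairs with Salmon 0.8.2 against RefSeq transcripts (rn6) with corrections for GC and positional bias. The deposited values are an estimated count (expected count), not normalised between samples, and a TPM for each of 18314 records. Lengths were also deposited. The labels give no batch. Gene names were given to 17352 records by a RefSeq table (GRCr8). The members and lists were chosen with earlier results of these data known. Named genes were all members, records past the threshold, the 3 highest by TPM in each adipocyte list and the 10 most like the members, and others were chosen after their values were seen.

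Estimated counts were rounded to whole numbers and tested in R 4.3.3 by edgeR 4.0.16 (TMM, filterByExpr, glmQLFit, glmQLFTest), and a record was called at a Benjamini-Hochberg adjusted p under 0.05. The fits were tested on simulated data. Normalised counts are CPM after TMM scaling, brought to the size of the mean effective library. SEs were derived from the log2 fold change and its F statistic. TPM and correlations were compared with exact permutation tests (log2 CPM with a prior count of 2). The alternatives tried were DESeq2 1.42.0 (plain or offset for transcript length), limma 3.58.1 on log2(TPM + 1) and log2(TPM + 0.1), other scaling and filters, records summed to genes, a replicate block and leaving out rats. Leaving out Wistar 1 and SHR 1 together was chosen after seeing the data. Depth was 25820299 to 35509074 estimated counts per rat, and counts of a few reads carry counting error beside the spread between rats.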

Additional observations from a re-analysis of the deposited data

Results flagged for a closer look

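In 16 groups of 4 rats (8 genes in each strain), 7 values lay far from the other 3 by Dixon's ratio of gap to range. Of these, 4 were in SHR 1: *Adipoq* at 588.3 normalised counts, *Fabp4* at 1239, *Lep* at 54.67 and the named *Pparg* record at 23.29, the other 3 SHR being estimated at 0 for the last. Wistar 1 gave 2, with *Ucp1* at 894.4 and *Plin1* at 24.98. The last was *Ucp1* in SHR 3, which was low at 12.23. *Cfd* in SHR 1 and *Lpl* in either strain were not among them. For independent groups of normally spread values, chance gives about 1 in 20 groups, or 0.8. The groups here were 8 genes in the same rats, and some of the genes rose together. The 7 flags can therefore not be set against 0.8.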

How the results depend on the processing

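Over 19 alternative settings 0 of the tested adipocyte records were called, with no adjusted p for *Fabp4* in the 2 DESeq2 settings. *Ucp1* stayed lower in SHR in all 19, with log2 fold changes from -3.18 to -0.64 and adjusted p from 0.131 to 0.646. *Adipoq* turned to lower in SHR with limma on log2(TPM + 1) (-0.15) and log2(TPM + 0.1) (-0.40), with the replicate block (-0.35), without SHR 1 (-2.14) and without both Wistar 1 and SHR 1 (-1.58). *Fabp4* turned without SHR 1 (-1.40) and without both (-0.31), and *Cfd* likewise (-0.48 and -0.33). *Lpl* turned to higher without SHR 3 (0.15) and SHR 4 (0.14). With 1 or both of these rats or any other rat left out, the log2 fold changes ran from -2.14 to 1.26 for *Adipoq*, -1.40 to 1.89 for *Fabp4*, -0.48 to 1.305 for *Cfd* and -0.80 to 0.15 for *Lpl*. The r of *Ucp1* and *Lpl* then ran from -0.0217 (without SHR 3) to 0.488, and that of *Fabp4* and *Lpl* from -0.0783 (without both) to 0.577. In the main fit 2 records were called in the 3 other adipocyte lists, which had 32, 13 and 13 tested records. The number was 5 with DESeq2, with or without the length offset, and 1 with RLE factors, upper-quartile factors or the replicate block. It was 6 without both rats and 1 to 3 when each rat was left out. Over all records the calls numbered 389 of 13659 tested (2.85%) in the main fit, 780 with DESeq2 and 799 with the length offset. They numbered 132 with the replicate block, 1068 without both rats and 237 to 454 when each rat was left out. The lists had the most calls in the settings with the most calls over all records. Pairs that co-varied numbered 4, and 0 within strains, 0 without both rats and 0 to 4 when each rat was left out. The cause of these changes was not tested. Over all tested records same-numbered rats did not deviate together, with r of -0.29, -0.12, -0.158 and -0.0381. The adipocyte genes were not checked apart, and the rats numbered 1 were the highest of both strains for some of them. With the replicate block the SE fell from 1.04 to 0.39 for *Fabp4* and from 1.12 to 0.70 for *Adipoq*, and rose from 0.48 to 0.51 for *Lpl*. The low counts of *Lep*, *Plin1* and *Pparg* limit what can be read from them. *Lep* could be tested only with no low-count filter (log2 fold change 2.29, SE 0.87, adjusted p = 0.257 by edgeR).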

Other observations

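Some lipid genes changed their call with the rats included, and they were picked after their values were seen. Calls over all records changed too, from 389 with all 8 rats to 454 without SHR 1 and 1068 without both Wistar 1 and SHR 1. With DESeq2 and all 8 rats they numbered 780. *Cd36*, which carries fatty acids across the cell membrane, had 379.5, 198.1, 392.8 and 154.8 normalised counts in Wistar 1 to 4 and 176.2, 25.95, 24.46 and 46.05 in SHR 1 to 4. With all 8 rats its log2 fold change was -2.04 (SE 0.62, adjusted p = 0.131 by edgeR), and SHR 1 lay within the Wistar range. Without SHR 1 *Cd36* fell by 3.11 on the log2 scale (SE 0.42, adjusted p = 0.00464 by edgeR), and without both Wistar 1 and SHR 1 by 2.95 (adjusted p = 0.00411 by edgeR). *Lepr*, the leptin receptor, had 677 to 1029 normalised counts in Wistar and 370 to 831 in SHR. It was called without SHR 1 (log2 fold change -0.88, adjusted p = 0.0475 by edgeR) and not with all rats (-0.60, adjusted p = 0.262). Without both rats, *Fasn* (0.69, adjusted p = 0.0398 by edgeR) and 2 records of *Acly* (0.50 and 0.53, adjusted p = 0.0211 and 0.0172), enzymes of fatty acid synthesis, were called as higher in SHR. With all 8 rats these 3 records were not called (adjusted p = 0.217, 0.313 and 0.420 by edgeR). DESeq2 called 3 further records with all 8 rats, *Cidea* (-2.01, adjusted p = 0.00252) and 1 of 3 *Cidec* records (-1.97, adjusted p = 0.0312) as lower and *Nr1h3* (0.54, adjusted p = 0.0358) as higher in SHR. The 3 *Cidec* records share reads, and their sum was highest in SHR 1 (711 normalised counts) and Wistar 1 (365).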
